A study of Homo sapiens and Mus musculus with 21 samples.

Results

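The genes described here were chosen by their own values in a BAP1 knockdown: all genes that were higher with an shRNA hairpin against BAP1 (shBAP1) than with a random hairpin in both human mesothelioma lines tested, H2810 and MSTO-211H. The rule asked for a ratio of mean CPM (a gene's count scaled to the library's total) of at least 1.5, with 0.25 CPM added to both means, for a mean of at least 2 CPM with shBAP1, and for every shBAP1 library to lie above every random-hairpin library, in each line. It was met by 126 of 60674 genes in the table. Of the 10753 genes that reached 2 CPM with shBAP1 in both lines, 5.56% passed the other conditions in H2810, 4.98% in MSTO-211H and 1.17% in both. Since these knockdown values selected the genes, they are given below as a description, and members are tested only in libraries that the rule did not use. For the pathways of the members, the other genes of each list are counted in the knockdown fit as context, with all members left out. Leaving them out removes list genes raised in both lines, which lowers the counts of higher genes by construction. Shares over all genes keep the members.

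The study sequenced messenger RNA of 21 libraries from mesothelioma, the cancer of the mesothelial lining. The knockdown set held 2 libraries for each line and hairpin, and the labels give neither the number of hairpins nor the BAP1 status of MSTO-211H. A drug set held 2 DMSO (vehicle) and 2 GSK126 libraries of each of 2 lines, H2810, whose Bap1 is labelled wildtype, and H2731, whose Bap1 is labelled mutated. GSK126 inhibits the histone methyltransferase EZH2. A mouse set held 3 libraries of BNC cells, with the genotype Bap1-/-;Nf2-/-;Cdkn2ab-/-, and 2 of NC cells, with Nf2-/-;Cdkn2ab-/-, so that loss of Nf2 and Cdkn2ab was common to both. No label tells if replicates came from different cultures, so the p-values cover only the spread among these libraries. Each human genotype was represented by 1 cell line, so BAP1 status and every other difference between H2731 and H2810 cannot be told apart.

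BAP1 is a deubiquitinase that removes monoubiquitin from histone H2A, a mark placed by Polycomb repressive complex 1. EZH2 is the catalytic subunit of Polycomb repressive complex 2, which methylates histone H3 at silenced genes. BAP1 is a tumour suppressor that is often lost in mesothelioma. Genes of 4 kinds recur below: DNA replication licensing genes, whose transcription E2F factors switch on as cells leave G1; sterol synthesis genes, driven by SREBP2; interferon-stimulated genes, driven through the ISRE promoter element; and targets of NF-kB, the transcription factor of inflammatory signalling.

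BAP1 itself stood at 116 and 119 CPM with the random hairpin and at 13.4 and 20.96 CPM with shBAP1 in H2810. In MSTO-211H it stood at 99.2 and 102 CPM and at 15.01 and 17.3 CPM. Library totals ran from 13693927 counts in the mouse set to 23217215 in the knockdown set. The summed level of 19 mesothelial markers was 2128 to 2194 CPM with the random hairpin and 1956 to 1988 CPM with shBAP1 in H2810, and 9063 to 9781 and 10610 to 11120 CPM in MSTO-211H, with PKHD1L1 and UPK1B at 0 in several groups. The sum of 7 leukocyte markers was 1.21 to 1.44 CPM with the random hairpin and 1.22 to 1.28 CPM with shBAP1 in H2810, and 0.96 to 1.52 and 3.14 to 3.27 CPM in MSTO-211H, where 2 of 3 tested markers were higher and 1 lower (edgeR), with CD3E at 0 in every human library. The sum of 8 fibroblast markers was 10420 to 10890 CPM with the random hairpin and 7790 to 8481 CPM with shBAP1 in H2810, and 1007 to 1046 and 1125 to 1219 CPM in MSTO-211H. Of 7 tested fibroblast markers, 0 were higher and 6 lower in H2810 (edgeR). In MSTO-211H 1 was higher and 5 were lower, although the sum was higher. With shBAP1, 22.5% of all genes tested were higher and 23.3% lower in H2810, and 21.7% and 24.5% in MSTO-211H. The part of these sums in the values below was not tested. These are bulk libraries of cell lines. A change in a marker sum cannot be split into RNA per cell and the share of cells expressing the marker.

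Promoter sequence was available for 96 of the 126 genes, as 250 bases before to 50 bases after the start site (RefSeq, GRCh38.p14). The windows that follow show elements that were more frequent in the promoters of replication and of interferon members than in all promoters, and each runs 5′ to 3′ on the gene's strand. The first 5 belong to DNA replication genes, and capitals mark each match to the E2F element TTTNNCGC on either strand, where overlapping matches join into 1 run. The minichromosome maintenance proteins MCM2, MCM3 and MCM6 are subunits of the replicative helicase, CDC6 loads that helicase onto origins, and E2F1 is itself an E2F factor.
MCM2 (chr3:127598371-127598430, plus strand): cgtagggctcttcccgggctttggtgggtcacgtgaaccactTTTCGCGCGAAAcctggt
MCM3 (chr6:52284723-52284782, minus strand): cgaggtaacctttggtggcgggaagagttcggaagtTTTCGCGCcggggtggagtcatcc
MCM6 (chr2:135876495-135876554, minus strand): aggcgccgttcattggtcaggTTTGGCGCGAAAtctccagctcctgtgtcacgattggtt
CDC6 (chr17:40287839-40287898, plus strand): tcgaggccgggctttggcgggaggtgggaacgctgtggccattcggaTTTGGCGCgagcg
E2F1 (chr20:33686366-33686425, minus strand): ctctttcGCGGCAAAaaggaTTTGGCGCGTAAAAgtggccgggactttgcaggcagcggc
The other 3 belong to interferon-stimulated genes, and capitals mark matches to TTCNNTTTC, the core of the ISRE, on either strand. ISG15 is a ubiquitin-like modifier, IFIT1 binds foreign RNA caps, and TAP1 is a subunit of the peptide transporter of antigen presentation.
ISG15 (chr1:1013371-1013430, plus strand): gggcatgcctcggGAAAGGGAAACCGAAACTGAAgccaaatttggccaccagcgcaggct
IFIT1 (chr10:89392496-89392555, plus strand): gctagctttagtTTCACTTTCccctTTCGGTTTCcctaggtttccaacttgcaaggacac
TAP1 (chr6:32853797-32853856, minus strand): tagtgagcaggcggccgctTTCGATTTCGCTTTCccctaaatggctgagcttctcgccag
The E2F letters were found in 9 of the 18 replication and cell cycle members with a promoter (50%), against 6.90% of all 27305 promoters and 11.2% of those of genes at 2 CPM or more with shBAP1 in both lines. Over all 96 members the share was 15.6%. The E2F element was added after the members were known, and roles were assigned after the members were seen. The shares by role are therefore a description only. The CCAAT box (CCAAT) was in 13 of the same 18 promoters (72.2%), against 35.7% of all promoters and 37.4% of those of expressed genes (2 CPM or more, as above). The ISRE letters were in all 3 interferon members with a promoter, against 8.29% of all promoters and 6.3% of those of expressed genes. Over all 96 members the ISRE share was 5.21%. The SREBP element (TCACNCCAC) was in 0 of 11 promoters of lipid members, against 1.15% of all promoters and 1.01% of those of expressed genes. The NF-kB element (GGNNTTTCC) was in 0 of 4 promoters of NF-kB members, against 6.26% and 6.7%. Over all 96 members the NF-kB share was 11.5%. With so few promoters, 0 matches cannot be told apart from these shares. Letters of the factor YY1 (AAGATGGCG) were in 0 of 96 member promoters, against 1.85% of all promoters and 4.51% of those of expressed genes. The ETS letters (CCGGAAG) were in 5.21%, against 10.7% and 21.6%. A match describes these letters only, not a bound site.

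Among the members, ratios were mostly small. The median ratio was 1.69 in H2810 (range 1.501 to 9.09) and 1.78 in MSTO-211H (1.504 to 6.19). The smaller of a gene's ratios was under 1.6 for 53 members, and 15 reached 2 in both lines. The last genes inside the threshold were RFX7, CADM1 and PCBP4, with smaller ratios of 1.503, 1.503 and 1.501, and the first outside were LIG1, C9orf40 and SPTY2D1, with 1.499, 1.499 and 1.497. Replicates of a group differed by a median of 0.06 to 0.09 on the log2 scale over the members and by at most 1.03, for IGFN1 with the random hairpin in H2810 (16.4 and 7.90 CPM). Of the 126 members, 124 are protein-coding. The starting level was far apart in the lines for some members. The random-hairpin level was more than 10-fold higher in H2810 for 8 members and more than 10-fold higher in MSTO-211H for 4. It was within 2-fold for 63. For genes outside the members this was not counted.

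**Figure D1:**
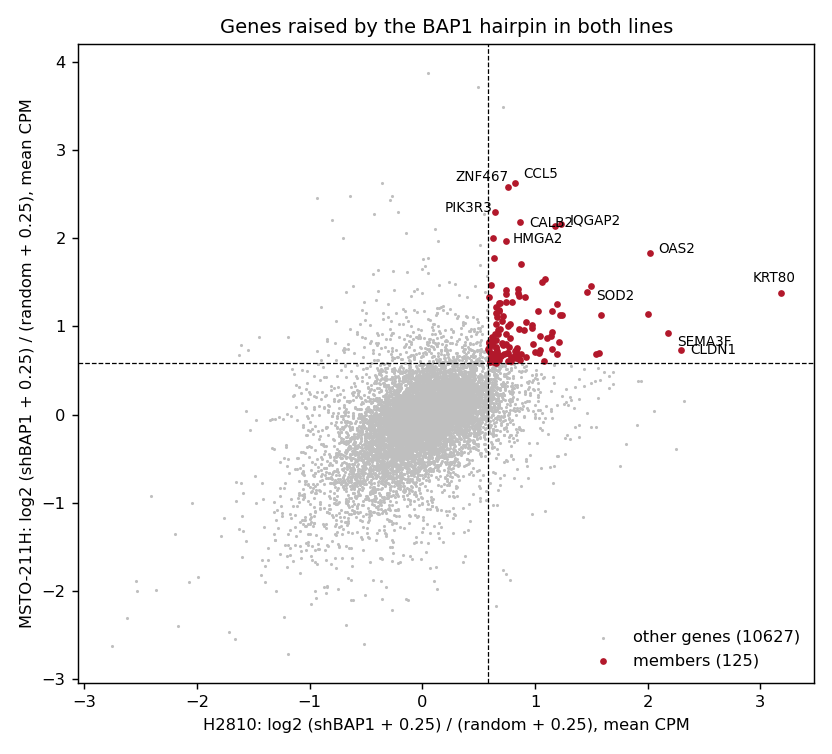
Each point is a gene with at least 2 CPM with shBAP1 in both lines, placed by its log2 ratio of shBAP1 over random hairpin in H2810 (x axis) and in MSTO-211H (y axis), and dashed lines mark a ratio of 1.5. Members (red, without 1 gene of the Y chromosome) fill the upper right corner by construction, and KRT80 with a ratio of 9.09 in H2810 and CCL5 with 6.19 in MSTO-211H lie at its far ends.

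The interferon-stimulated members included genes with a high ratio in H2810 and a very different starting level in the lines. OAS2, an oligoadenylate synthetase that activates RNase L, stood at 144 and 147 CPM with the random hairpin and at 601 and 580 CPM with shBAP1 in H2810, a ratio of 4.05. In MSTO-211H it stood at 0.43 and 0.86 CPM and at 3.14 and 2.71 CPM, a ratio of 3.56. ISG15 stood at 68.7 and 72.0 CPM against 279 and 288 CPM in H2810, and at 8.81 and 10.9 CPM against 22.3 and 21.7 CPM in MSTO-211H. IFIT1 had ratios of 2.90 and 1.61, OASL, a second oligoadenylate synthetase family gene, 1.64 and 2.09, TAP1 2.12 and 1.53, and LY6E, a membrane-anchored interferon-induced protein, 1.51 and 1.76. In every case the shBAP1 libraries lay above the random-hairpin libraries of the same line, as the rule requires. Of the other 47 genes of the list of interferon-stimulated and antigen presentation genes, which holds 5 of these members, 42 were called higher and 2 lower by edgeR's quasi-likelihood test in H2810, and 10 higher and 21 lower in MSTO-211H. Of all 15872 genes tested, 22.5% were higher and 23.3% lower in H2810, and 21.7% higher and 24.5% lower in MSTO-211H. MX1, OAS1 and OAS3, named as the nearest relatives of the members after their values were seen, were at log2 fold changes of 2.59 ± 0.07, 1.64 ± 0.06 and 2.25 ± 0.07 in H2810 (± SE of the fit) and of -1.23 ± 0.19, -1.39 ± 0.16 and -0.38 ± 0.10 in MSTO-211H.

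NF-kB members had the higher ratio in MSTO-211H for 5 of 7 genes, as did 74 of all 126 members. SOD2, the mitochondrial superoxide dismutase and a classical NF-kB target, stood at 503 and 527 CPM against 1425 and 1413 CPM in H2810, and at 102 and 102 CPM against 276 and 260 CPM in MSTO-211H. CCL5, a T cell attracting chemokine, stood at 515 and 558 CPM against 936 and 957 CPM in H2810, and at 1.99 and 2.58 CPM against 15.8 and 15.1 CPM in MSTO-211H, where its ratio of 6.19 was the largest of all members. RELB and NFKB2, the subunits of the noncanonical NF-kB dimer, had ratios of 1.53 and 1.61 in H2810 and of 2.77 and 2.40 in MSTO-211H. IRAK2, a kinase of interleukin receptor signalling, had 1.73 and 2.43, the elastase inhibitor PI3 3.01 and 2.18, and TNIP1, which restrains NF-kB signalling, 1.51 and 1.75. Of the other 27 tested genes of the list of NF-kB pathway genes and cytokines, which holds 5 members, 11 were called higher and 3 lower in H2810 and 15 higher and 1 lower in MSTO-211H (edgeR). In this fit 22.5% of all genes were higher and 23.3% lower in H2810, and 21.7% and 24.5% in MSTO-211H. TNFAIP3, an inhibitor of the pathway named after its values were seen, was at -1.01 ± 0.07 in H2810 and at 0.28 ± 0.12 in MSTO-211H (log2 ± SE).

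DNA replication, cell cycle and repair was the largest role, with 20 members and narrow ratios of 1.51 to 2.22 in H2810 and 1.54 to 2.33 in MSTO-211H. They cover successive steps of origin licensing and firing. ORC1 and ORC6 belong to the origin recognition complex, CDC6 loads the helicase, GMNN restrains loading, MCM2, MCM3, MCM4 and MCM6 form part of the helicase, MCM10 and GINS2 activate it, and RPA1, FEN1 and CLSPN act at the fork. CHAF1A and CHAF1B deposit histones behind the fork, and XRCC3 and EME2 act in recombination repair. CDC25A, the phosphatase that activates cyclin-dependent kinases at S phase entry, stood at 21.3 and 22.0 CPM against 48.9 and 47.9 CPM in H2810, and at 31.3 and 31.5 CPM against 71.2 and 70.6 CPM in MSTO-211H. MCM2 stood at 50.3 and 54.5 CPM against 95.6 and 103 CPM, and at 154 and 151 CPM against 240 and 239 CPM. E2F1 stood at 28.4 and 26.4 CPM against 41.9 and 46.2 CPM, and at 13.1 and 11.7 CPM against 29.1 and 27.6 CPM. CCND1, cyclin D1, stood at 142 and 145 CPM against 250 and 243 CPM, and at 265 and 246 CPM against 538 and 503 CPM. In these 4 genes replicates lay closer to each other than to the libraries of the other hairpin. EME2 did not show this in H2810, at 13.4 and 11.4 CPM against 14.2 and 23.6 CPM. Of the other 23 genes of the list of DNA replication and mitosis genes, which holds 7 members, 16 were called higher and 2 lower in H2810 and 9 higher and 5 lower in MSTO-211H (edgeR). The shares of all genes were 22.5% higher and 23.3% lower in H2810, and 21.7% and 24.5% in MSTO-211H. Mitosis genes were named after their values were seen. CCNB1, the mitotic cyclin, was at 0.49 ± 0.06 in H2810 and at -0.31 ± 0.05 in MSTO-211H, and AURKA, a mitotic kinase, at 0.73 ± 0.07 and 0.00 ± 0.07 (edgeR, log2 ± SE).

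The lipid members included genes of sterol synthesis. HMGCS1, which makes HMG-CoA, stood at 61.7 and 66.6 CPM against 99.0 and 102 CPM in H2810, and at 73.6 and 74.0 CPM against 139 and 138 CPM in MSTO-211H. FASN, fatty acid synthase, stood at 270 and 217 CPM against 489 and 404 CPM, and at 903 and 789 CPM against 1338 and 1393 CPM. Both were apart by hairpin, as the rule requires, and FASN varied more between replicates. MVK (mevalonate kinase), IDI1 (isopentenyl isomerase) and STARD4 (a sterol carrier) had ratios of 1.70, 2.23 and 1.55 in H2810 and of 1.70, 1.67 and 1.76 in MSTO-211H. Of the other 30 genes of the list of sterol synthesis and SREBP target genes, which holds 6 members, 22 were called higher and 3 lower in H2810 and 18 higher and 5 lower in MSTO-211H (edgeR). For all genes tested the shares were 22.5% higher and 23.3% lower in H2810, and 21.7% and 24.5% in MSTO-211H. SREBF2, which encodes the driving factor SREBP2 and was named after its values were seen, was at 1.01 ± 0.05 in H2810 and at 0.48 ± 0.05 in MSTO-211H (log2 ± SE). Some lipid members act elsewhere: PISD makes phosphatidylethanolamine, SPHK1 makes sphingosine phosphate, CERS1 makes ceramide and STS cleaves steroid sulfates.

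Keratin, adhesion and cytoskeleton genes had ratios of 1.503 to 9.09 in H2810 and of 1.65 to 4.53 in MSTO-211H. KRT80, an epithelial keratin, stood at 11.3 and 11.9 CPM against 107 and 107 CPM in H2810, and at 439 and 401 CPM against 1096 and 1094 CPM in MSTO-211H. CLDN1, a tight junction claudin, stood at 1.43 and 2.04 CPM against 9.73 and 9.29 CPM, and at 118 and 120 CPM against 196 and 200 CPM. Both were low in H2810 and abundant in MSTO-211H, and both had the higher ratio in H2810. The opposite order of ratios held for CALB2, calretinin, a marker of mesothelial cells, at 19.04 and 21.7 CPM against 36.8 and 37.8 CPM in H2810 and 11.9 and 9.32 CPM against 49.6 and 48.5 CPM in MSTO-211H. ITGB8, the integrin subunit that activates latent TGF-beta, had ratios of 2.26 and 4.41, IQGAP2, a scaffold of the actin cytoskeleton, 2.34 and 4.46, and MICAL2, which oxidises actin, 2.13 and 2.91. KRT7, a simple epithelial keratin whose start lies 40506 bases from that of KRT80, had 1.61 and 2.41. Members aside, among 20 tested epithelial genes 2 were called higher and 8 lower in H2810 and 5 higher and 6 lower in MSTO-211H, and among 12 tested mesothelial genes 2 higher and 3 lower, and 6 higher and 3 lower (edgeR). In this fit 22.5% of all genes were higher and 23.3% lower in H2810, and 21.7% and 24.5% in MSTO-211H.

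Signalling members spanned ligands, receptors and feedback genes. Among the ligands, SEMA3F, a class 3 semaphorin that repels axons and vessels, stood at 10.8 and 11.5 CPM against 51.01 and 52.0 CPM in H2810 and at 30.4 and 25.3 CPM against 54.4 and 52.0 CPM in MSTO-211H. SEMA3A, of the same family, had ratios of 1.80 and 2.61, HBEGF, an EGF receptor ligand, 1.56 and 3.42, and VEGFC, a ligand that drives lymphatic growth, 1.67 and 2.67. Among the receptors, EPHA2, an ephrin receptor kinase, had 1.79 and 1.69, and TNFRSF21, death receptor DR6, 2.09 and 2.85. Downstream, DUSP6, the phosphatase that ends ERK signalling, had 1.80 and 2.69, PIK3R3, a regulatory subunit of PI 3-kinase, 1.57 and 4.91, and NUAK2, an AMPK-related kinase, 2.29 and 2.39. Ratios were higher in MSTO-211H for 7 of these 11 members, against 74 of all 126 members. Of the other 30 tested genes of the list of receptor tyrosine kinase ligands and receptors, which holds 3 members, 8 were called higher and 8 lower in H2810 and 7 higher and 12 lower in MSTO-211H (edgeR). The shares of all genes were 22.5% higher and 23.3% lower in H2810, and 21.7% and 24.5% in MSTO-211H.

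Among chromatin proteins and transcription factors, HMGA2, an architectural protein that binds AT-rich DNA, stood at 72.0 and 72.3 CPM against 121 and 122 CPM in H2810 and at 30.95 and 31.1 CPM against 126 and 118 CPM in MSTO-211H. The zinc finger gene ZNF467 stood at 2.86 and 2.73 CPM against 4.58 and 5.23 CPM, and at 1.23 and 0.91 CPM against 7.08 and 8.27 CPM. The 2 libraries of each group were close, and HMGA2 ended at nearly the same level in both lines. MTF2, an accessory subunit of Polycomb repressive complex 2, had ratios of 1.70 and 1.63 and was the only member among 31 tested Polycomb genes. Of the other 30, 7 were called higher and 8 lower in H2810 and 8 higher and 9 lower in MSTO-211H (edgeR). For all genes tested the shares were 22.5% higher and 23.3% lower in H2810, and 21.7% and 24.5% in MSTO-211H. H1-2 and H2AC6, histone genes whose counts may include near-identical copies, had ratios of 1.96 and 2.03, and 1.96 and 1.97. The retinoid pair was CYP26B1, which degrades retinoic acid, at 29.1 and 30.0 CPM against 55.9 and 53.1 CPM in H2810 and at 0.71 and 0.38 CPM against 2.30 and 2.41 CPM in MSTO-211H, and RDH10, which makes its precursor retinal. RDH10 stood at 99.6 and 101 CPM against 151 and 159 CPM, and at 85.3 and 70.4 CPM against 325 and 302 CPM. Both had the higher ratio in MSTO-211H.

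**Figure D2:**
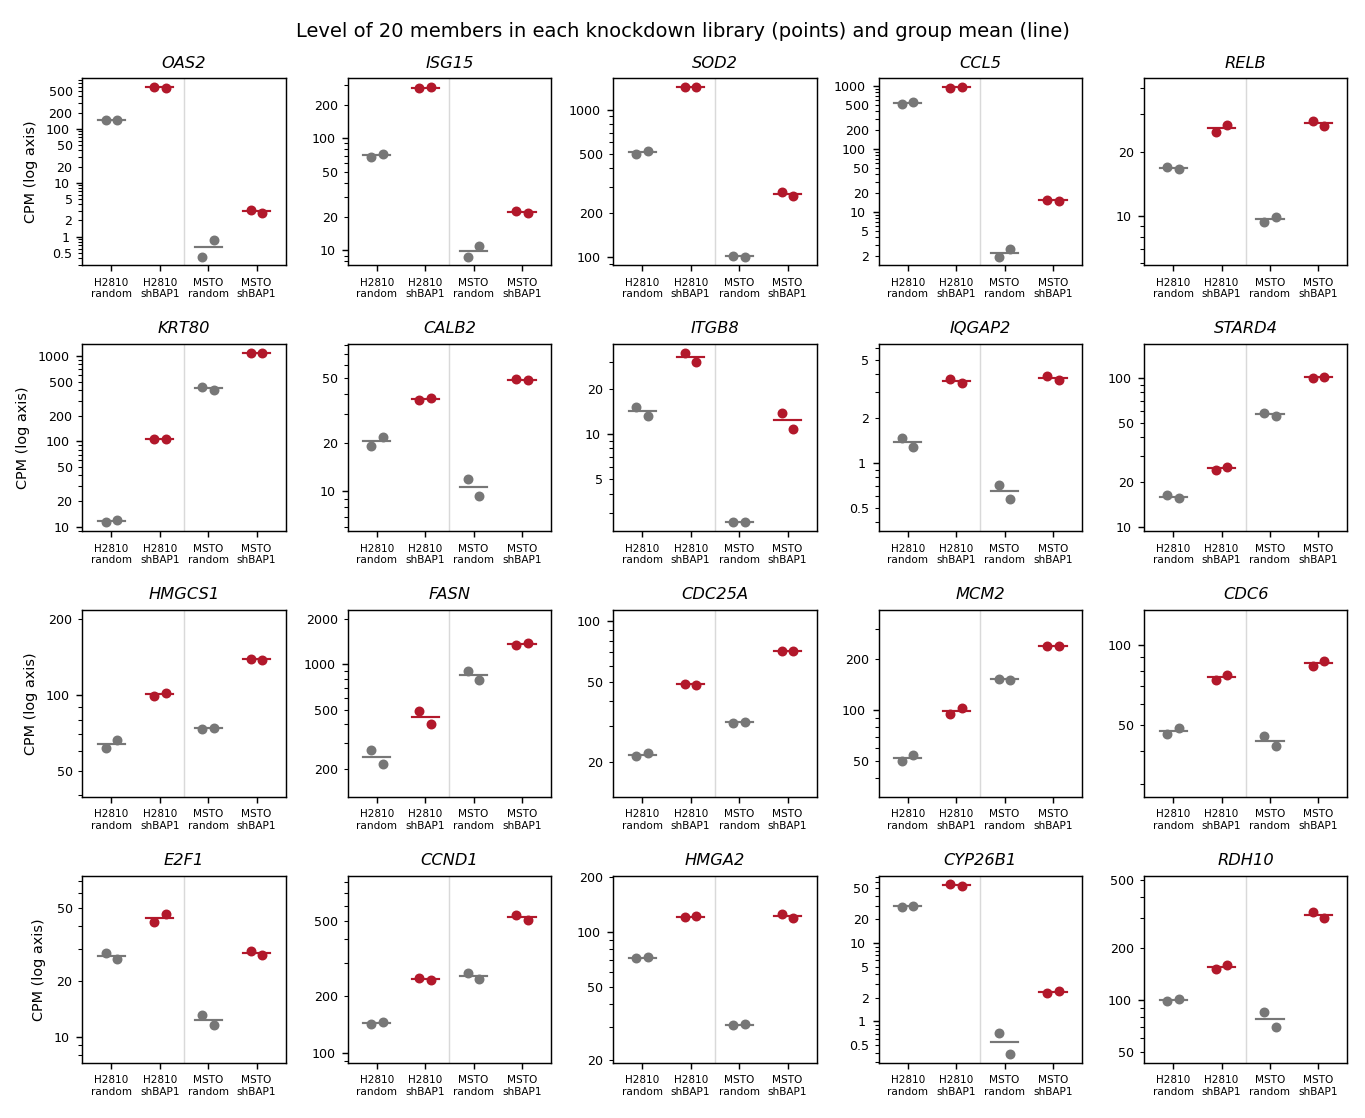
CPM (log axis) of 20 members in each of the 8 knockdown libraries, 1 panel per gene, with grey points for the random hairpin, red points for shBAP1 and a line at the group mean. In each panel both red points lie above both grey points of the same line, as the rule requires, while the levels of OAS2, CCL5 and CYP26B1 differ between the lines by far more than between hairpins.

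The remaining 46 members were enzymes, transporters and genes of varied or unclear role. Median ratios were 1.71 in H2810 and 1.795 in MSTO-211H over 28 of them, and 1.555 and 1.585 over the 18 enzymes and transporters. Among them ZBED6CL stood at 39.8 and 40.9 CPM against 110 and 118 CPM in H2810 and at 6.07 and 5.54 CPM against 16.5 and 16.4 CPM in MSTO-211H. LRRC61, which starts 624 bases away on the same strand of chromosome 7 and overlaps it, had similar ratios of 2.33 and 2.19, and their reads cannot be told apart at this level. Other pairs of members with starts within 100000 bases were ISG15 and AL645608.7, H1-2 and H2AC6, and JPT2 and EME2. Of the 125 members found in the GENCODE annotation of GRCh38, 78 overlap another coding or lncRNA gene, 71 of them on the opposite strand, and no source used here states if strand was used in counting. The metabolic genes of this group include IDH1 and OGDH of the citrate cycle and its neighbours (ratios 1.52 and 1.67 in H2810, 1.55 and 1.74 in MSTO-211H) and PPAT, which opens purine synthesis (1.59 and 1.55).

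GSK126 libraries of H2810 had no part in the rule. All 126 members were tested there, with levels now given as CPM of the TMM-adjusted library size and tests by edgeR's quasi-likelihood fit with Benjamini-Hochberg adjustment over 15999 genes. In H2810, 49 members rose and 17 fell with GSK126. Over all genes 16.3% rose and 12.9% fell, and the median log2 fold change was 0.14 over the members against 0.00 over all genes. By contrast, in H2731 23 members rose and 25 fell, against 13.8% and 10.9% of all genes, with a median of -0.01; the 25 became 16 with DESeq2 and 17 without vehicle replicate 1 or GSK126 replicate 2 of H2731. Thus the share of members that rose was 38.9% in H2810 and 18.3% in H2731. The rule set a minimum level in H2810 but none in H2731, where some members had few counts and were less likely to be called. The shares over all genes also include genes below that minimum. The part of these limits in the difference was not tested.

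The replication members differed between the lines. In H2810, 17 of the 20 rose with GSK126 and none fell, with a median log2 fold change of 0.48. Over all genes 16.3% rose and 12.9% fell there. CDC6 went from 50.2 and 50.1 CPM with DMSO to 83.2 and 82.5 CPM with GSK126 (0.72 ± 0.04, SE, adjusted p = 2.6e-10). MCM2 went from 49.1 and 48.4 CPM to 69.2 and 67.4 CPM (0.49 ± 0.05, adjusted p = 1.6e-07). CCND1 went from 127 and 133 CPM to 179 and 184 CPM (0.48 ± 0.04, adjusted p = 8.5e-09). For these 3 genes the treated libraries lay wholly above the vehicle libraries. RPA1, EME2 and ORC6 were at 0.04 ± 0.04, 0.02 ± 0.13 and -0.00 ± 0.09 and did not pass. In H2731, where 13.8% of all genes rose and 10.9% fell, no replication member rose and 4 fell (CHAF1A, MCM3, MCM4 and RPA1), by 0.11 to 0.17. That count of 4 became 2 without vehicle replicate 1, GSK126 replicate 1 or GSK126 replicate 2 of H2731 or with no filter on low counts, and 0 with DESeq2. CDC6 was at 131 and 134 CPM with DMSO and at 132 and 131 CPM with GSK126 there (-0.00 ± 0.04, adjusted p = 0.96). The difference of the responses (H2731 minus H2810), tested as an interaction, was lower for 18 of the 20 and higher for 0, with a median of -0.58, while 6.66% of all genes were lower and 8.08% higher. For CDC6 it was -0.73 ± 0.06 (adjusted p = 3.2e-08), and for CDC25A, whose response in H2810 was 0.56 ± 0.09, it was -0.68 ± 0.13 (adjusted p = 0.0011). The wider list of 30 replication and mitosis genes showed 16 higher and 5 lower in H2810 and 2 higher and 4 lower in H2731. Some mitosis genes were named after their values were seen. AURKA fell in H2810 by 0.32 ± 0.05 and PLK1, a mitotic kinase, by 0.33 ± 0.05 (edgeR, adjusted p = 1.6e-05 and 2.4e-05). They do not stand for all mitosis genes, which were not counted apart from the list.

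Under vehicle, replication members were also at a higher level in H2731 than in H2810. This comparison shares the H2810 DMSO libraries with the GSK126 response of H2810 and the H2731 DMSO libraries with that of H2731, so the values are given side by side only. Of the 20 genes, 18 were higher in H2731 and 0 lower, with a median of 1.03, where 41.5% of all genes were higher and 40.7% lower. MCM2 had 267 and 256 CPM in H2731 against 49.1 and 48.4 CPM in H2810 (2.42 ± 0.04, adjusted p = 1.1e-20). CDC25A, at 14.96 and 17.5 CPM against 17.5 and 15.1 CPM, and EME2 did not pass. The list of 30 replication and mitosis genes was higher for 29 and lower for 1.

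**Figure D3:**
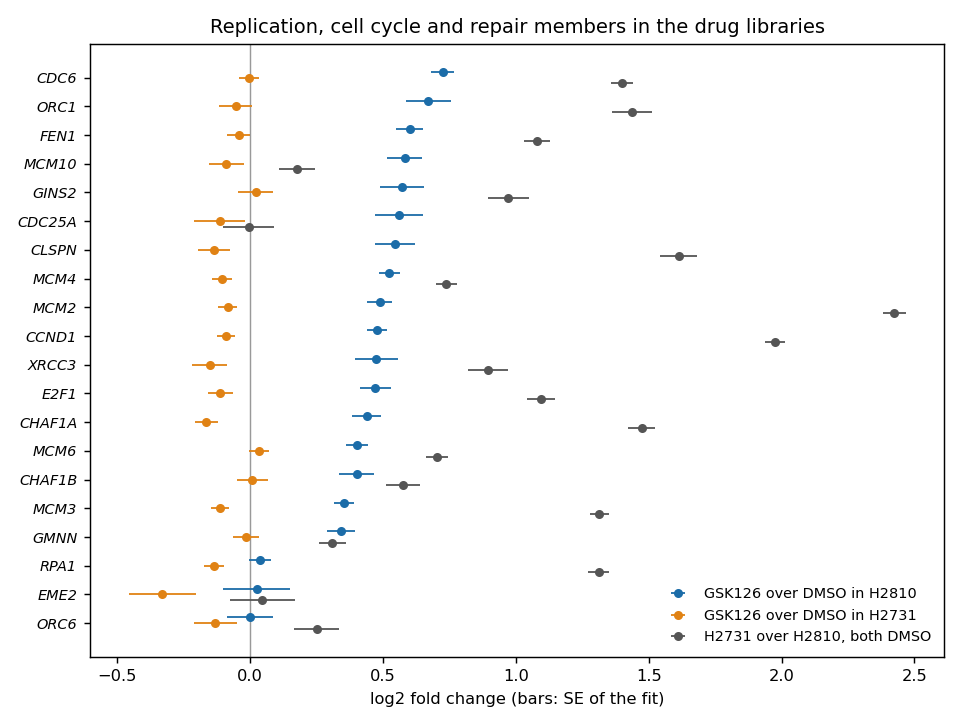
Log2 fold changes with their SE for the 20 replication, cell cycle and repair members in the drug libraries, ordered by the response to GSK126 in H2810. The responses in H2810 (blue) reach 0.72 for CDC6 while those in H2731 (orange) lie near or below 0, and the difference of the lines under DMSO (grey) reaches 2.42 for MCM2.

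Among the interferon members, 5 of 6 rose with GSK126 in H2810, where 16.3% of all genes rose and 12.9% fell. OAS2 went from 233 and 227 CPM to 478 and 466 CPM (1.04 ± 0.04, adjusted p = 6.2e-14), ISG15 from 113 and 113 CPM to 227 and 220 CPM (0.98 ± 0.05, adjusted p = 3.2e-11), and OASL fell from 439 and 420 CPM to 384 and 382 CPM (-0.17 ± 0.04, adjusted p = 0.0016). In H2731, ISG15, LY6E and TAP1 fell, by 0.46 ± 0.09, 0.31 ± 0.05 and 0.21 ± 0.05 (largest adjusted p = 0.0021), and their responses differed between the lines by -1.44 ± 0.10, -0.66 ± 0.06 and -0.50 ± 0.06 (largest adjusted p = 1.6e-05). These genes were already low in H2731 under vehicle: all 6 were lower than in H2810, as were 40.7% of all genes tested. OAS2 was at 0.30 and 0.25 CPM there and OASL at 0.30 and 0.35 CPM, so few counts lay behind any change of these genes in H2731. The list of 52 interferon-stimulated and antigen presentation genes rose for 44 and fell for 3 with GSK126 in H2810 and rose for 15 and fell for 6 in H2731. In H2731 13.8% of all genes rose and 10.9% fell.

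HMGCS1 moved more in H2731. It was at 114 and 116 CPM with DMSO and 115 and 119 CPM with GSK126 in H2810 (0.03 ± 0.04, adjusted p = 0.62), and at 470 and 480 CPM and 1020 and 1027 CPM in H2731 (1.11 ± 0.03, adjusted p = 2.8e-14). The difference of its responses was 1.08 ± 0.05 (adjusted p = 1.8e-11). STARD4 rose in both lines, by 0.78 ± 0.06 and 0.94 ± 0.04, and FASN by 0.49 ± 0.06 and 0.51 ± 0.06; neither difference passed (0.16 ± 0.07 and 0.02 ± 0.09). Of the 13 lipid members, 5 rose and 1 fell in H2810 and 6 rose and 1 fell in H2731. Over all genes 16.3% rose and 12.9% fell in H2810, and 13.8% rose and 10.9% fell in H2731. The member that fell in H2810 was LIPH, a phospholipase that makes lysophosphatidic acid, from 26.6 and 23.9 CPM to 14.3 and 13.3 CPM (-0.87 ± 0.09, adjusted p = 5.2e-07), and the one that fell in H2731 was ST3GAL5, which makes the ganglioside GM3 (-0.52 ± 0.05, adjusted p = 6.9e-07). The whole list of 36 sterol and SREBP genes rose for 18 and fell for 4 in H2810 and rose for 32 and fell for 1 in H2731.

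Both retinoid members rose in both lines. RDH10 went from 130 and 131 CPM to 313 and 311 CPM in H2810 (1.26 ± 0.04, adjusted p = 2.3e-14) and from 17.7 and 17.6 CPM to 28.7 and 25.9 CPM in H2731 (0.63 ± 0.07, adjusted p = 5.7e-07). CYP26B1 went from 13.4 and 13.5 CPM to 29.3 and 34.4 CPM (1.24 ± 0.09, adjusted p = 1.3e-09) and from 3.83 and 4.45 CPM to 6.73 and 6.35 CPM (0.67 ± 0.15, adjusted p = 0.0022). Without vehicle replicate 1 of H2731, CYP26B1 was at 0.55 there and did not pass. In all, 11 of the 126 members rose in both lines, as did 5.76% of all genes tested, and besides these and STARD4, FASN and IDI1 they were SOD2, TNFRSF21, VEGFC, CADM1, FILIP1L and ZBED6CL. VEGFC did not pass in H2810 without GSK126 replicate 1 (0.24). SOD2 went from 818 and 830 CPM to 1182 and 1172 CPM in H2810 and from 573 and 573 CPM to 842 and 889 CPM in H2731. It was the only one of the 7 NF-kB members to rise in either line (14.3%), where 16.3% of all genes rose in H2810 and 13.8% in H2731. CCL5 and NFKB2 fell in H2810 by 0.20 ± 0.04 and 0.21 ± 0.06 (adjusted p = 0.0011 and 0.0089), as did 12.9% of all genes. NFKB2 did not pass without vehicle replicate 2 (-0.18) or without GSK126 replicate 1 (-0.15).

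The 5 members that fell with GSK126 in both lines, as did 3.68% of all genes tested, were KRT7, KRT80, EPHA2, MRI1 and ZNF512B. EPHA2 went from 172 and 183 CPM to 103 and 102 CPM in H2810 (-0.79 ± 0.04, adjusted p = 1.7e-11) and from 442 and 429 CPM to 353 and 348 CPM in H2731 (-0.31 ± 0.04, adjusted p = 2.4e-06). KRT80, with the largest ratio in the knockdown of H2810, went from 36.4 and 37.0 CPM to 30.0 and 29.2 CPM with the drug (-0.31 ± 0.06, adjusted p = 0.00028). SEMA3F and HBEGF fell in H2810 by 0.61 ± 0.06 and 0.62 ± 0.14 (adjusted p = 5.7e-07 and 0.002). CALB2 fell in H2810 by 0.50 ± 0.04 and rose in H2731 by 0.62 ± 0.16 (adjusted p = 4.2e-08 and 0.008), where it stood at only 2.22 and 3.04 CPM under vehicle; the rise did not pass without vehicle replicate 1 (0.40) or GSK126 replicate 2 (0.55) of H2731. The same line had other CALB2 levels in the knockdown set, 19.04 and 21.7 CPM with the random hairpin against 170 and 177 CPM with DMSO, although these tables were scaled separately.

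The largest responses to GSK126 belonged to single genes. IGFN1, a muscle protein with immunoglobulin-like domains, went from 16.1 and 12.4 CPM to 79.0 and 73.4 CPM in H2810 (2.43 ± 0.11, adjusted p = 3.9e-12) and was at 146 and 177 CPM with DMSO and 189 and 166 CPM with GSK126 in H2731. CADM1, a cell adhesion molecule, went from 9.02 and 9.52 CPM to 25.5 and 25.1 CPM in H2810 (1.44 ± 0.09, adjusted p = 1.3e-10). In H2731 the largest rises were those of HMGA2, from 1.61 and 1.67 CPM to 5.46 and 5.74 CPM (1.77 ± 0.16, adjusted p = 1.2e-07), FILIP1L, from 3.74 and 3.44 CPM to 11.1 and 11.4 CPM (1.64 ± 0.13, adjusted p = 1.9e-08), and ITGB8, from 21.4 and 20.4 CPM to 48.3 and 49.7 CPM (1.22 ± 0.06, adjusted p = 4.6e-11). HMGA2 and ITGB8 were at 0.06 ± 0.07 and 0.00 ± 0.06 in H2810, and the differences of 1.71 ± 0.18 and 1.22 ± 0.09 passed (adjusted p = 1.1e-06 and 1.1e-08). In the other direction ARHGEF16, a guanine nucleotide exchange factor, went from 30.0 and 28.4 CPM to 18.9 and 17.8 CPM and NUAK2 from 88.9 and 88.0 CPM to 58.4 and 59.3 CPM in H2731 (-0.67 ± 0.07 and -0.59 ± 0.05, adjusted p = 1.0e-06 and 3.3e-08).

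**Figure D4:**
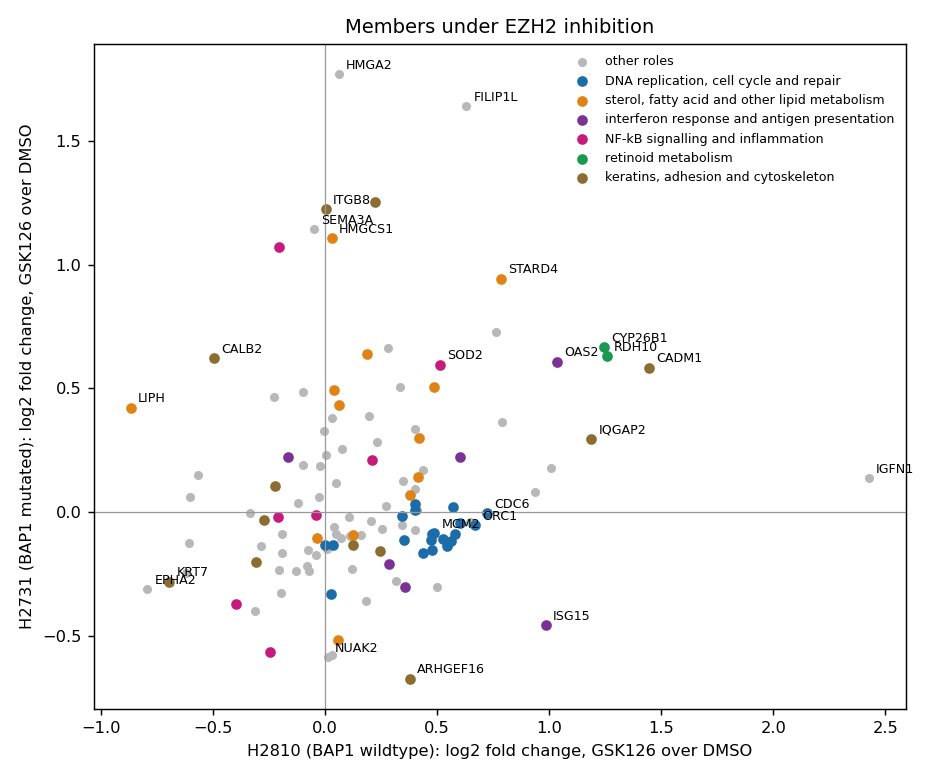
Each point is a member, placed by its log2 fold change with GSK126 in H2810 (x axis) and in H2731 (y axis) and coloured by role, without CACNG6, which had no count with DMSO in H2731, and 1 gene of the Y chromosome. Replication members (blue) spread along the x axis up to 0.72 at values near 0 on the y axis, sterol members such as HMGCS1 reach 1.11 on the y axis, and CYP26B1 and RDH10 lie high on both.

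The line labelled Bap1 mutated did not carry the members at a uniformly higher level. Under DMSO, 66 members were higher and 45 lower in H2731 than in H2810, against the 41.5% and 40.7% of all genes given above, and the median was 0.29 over members and 0.01 over all genes. BAP1 itself, here as CPM of the library total without TMM scaling, was at 145 and 140 CPM in H2810 and at 70.6 and 69.4 CPM in H2731. Some members differed widely between the lines. KRT7 was at 2345 and 2172 CPM in H2731 and at 6.51 and 6.15 CPM in H2810 (8.48 ± 0.06, adjusted p = 1.9e-26), and NUAK2 at 88.9 and 88.0 CPM against 3.14 and 3.22 CPM (4.79 ± 0.09, adjusted p = 1.3e-20). CCL5 was at 0.22 and 0.41 CPM against 365 and 356 CPM (-10.18 ± 0.11, adjusted p = 4.8e-24), and CALB2 at 2.22 and 3.04 CPM against 170 and 177 CPM. CACNG6, a calcium channel gamma subunit, had no count in either H2731 vehicle library and 4.85 and 4.59 CPM in H2810. By role, the median ran from -4.03 for the 6 interferon members to 1.03 for the 20 replication members, with 7 of 13 lipid members higher and 3 lower and 1 of 7 NF-kB members higher and 5 lower.

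**Figure D5:**
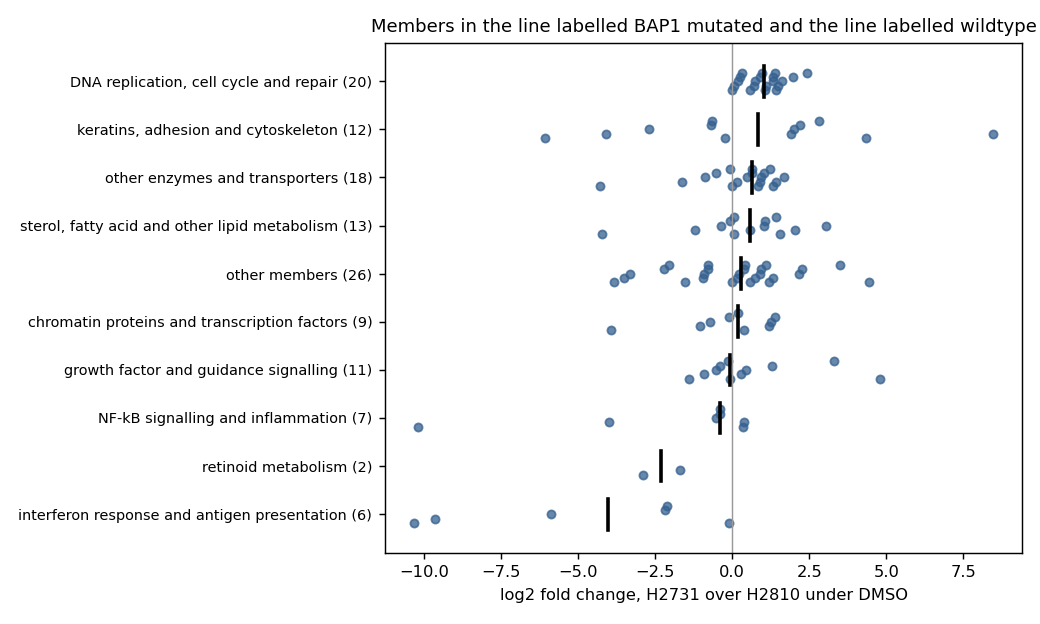
Log2 fold change of H2731 over H2810 under DMSO for each member (points), by role with the number of genes plotted, and the median of the role (bar), without CACNG6 and 1 gene of the Y chromosome. The interferon members lie at or below 0 with a median of -4.03, the replication members at or above about 0 with a median of 1.03, and keratin and adhesion genes spread from CALB2 at -6.06 to KRT7 at 8.48.

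In the mouse cells, 111 members were matched to a mouse gene by symbol and 100 could be tested. None was called higher and none lower by edgeR, where 0% of all 12225 genes were higher and 0% lower. At an unadjusted p under 0.05 edgeR listed 823 of the genes (369, 359 and 2624 without BNC replicate 4, 5 or 6) and 8 of the members, 6 higher and 2 lower in BNC (2 and 2, 3 and 2 or 13 and 6 without BNC replicate 4, 5 or 6, and 6 and 7 without NC replicate 4), and limma-voom called 0 of the members after adjustment. DESeq2 called 302 genes and 4 members: Hmgcs1 (HMGCS1) and Trib1 (TRIB1), higher in BNC by 1.11 ± 0.15 and 1.25 ± 0.30, and Ly6e (LY6E) and Krt7 (KRT7), lower by 1.95 ± 0.33 and 4.26 ± 0.97 (adjusted p = 5.7e-11, 0.0034, 1.2e-06 and 0.0014). The edgeR estimate for HMGCS1 was 1.10 ± 0.17 with an adjusted p of 0.50. Bap1, as CPM of the library total without TMM scaling, was at 29.7, 32.8 and 43.8 CPM in BNC and at 60.7 and 64.0 CPM in NC. The coefficient of variation between replicates that edgeR estimated over all genes was 0.539 in the mouse fit and 0.0311 in the drug fit. The median over the members was 0.11, against 0.03 over all genes, and that of the 20 replication members was 0.13.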

How the data were processed

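Gene counts, the unit the authors deposited (whole numbers per Ensembl gene and library, not normalized), were read for 21 libraries. Per the submitters' processing notes, TopHat2 2.0.12, TopHat, HTSeq and DESeq2 were used, with mouse builds mm10 and GRCm38; roles, the human build and the strand setting are not given in the sources used here. Per the labels' protocols, poly-A RNA was sequenced as single-end reads. In the knockdown file 1 nameless entry with 0 counts was left out.

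Members and gene lists were chosen with earlier results of these data known, and roles were assigned after the members were seen. Each table was fitted alone, all groups together, in edgeR 4.0.16 (R 4.3.3): filterByExpr, TMM scaling, quasi-likelihood F tests, Benjamini-Hochberg adjustment over all genes tested, call at 0.05; SE is the log2 fold change over the square root of F. The human fits covered 15872 and 15999 genes, the mouse fit 12225. Steps were tested on simulated data. Totals per library were 13693927 to 23217215 counts. Named genes were the 20 members with the largest smaller ratio, up to 4 per gene list, the 5 largest called rises and falls per comparison at a mean log2 CPM of at least 1, the 3 members with the largest difference between the lines each way, the 3 genes on each side of the ratio threshold, and the 4 members with the highest mean with shBAP1; other names were chosen after values were seen. Alternatives were RLE scaling, no filter, a filter of 50 counts in 2 libraries, DESeq2 1.42.0, limma-voom (limma 3.58.1), only the groups compared, a replicate block, each library left out, and other settings of the rule. Motifs were searched on both strands of RefSeq promoters (GRCh38.p14); the E2F element was added after the members were known. Results for 1 member are not reported here.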

Additional observations from a re-analysis of the deposited data

Results flagged for a closer look

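Responses to GSK126 that differed between H2731 and H2810 by the interaction test are listed here (edgeR, H2731 minus H2810, log2). Over all members, 39 had a lower and 19 a higher response in H2731, against 6.66% and 8.08% of all genes tested, and of the replication, cell cycle and repair members 18 had a lower one. Lower in H2731 were IGFN1 (-2.29), ISG15 (-1.44), ARHGEF16 (-1.05), IQGAP2 (-0.89), CADM1 (-0.86), RDH10 (-0.63), NUAK2 (-0.60), CYP26B1 (-0.58) and ST3GAL5 (-0.57). Higher in H2731 were HMGA2 (1.71), LIPH (1.29), ITGB8 (1.22), SEMA3A (1.19), HMGCS1 (1.08), FILIP1L (1.01), EPHA2 (0.48), SEMA3F (0.48) and KRT7 (0.41). The differences for ARHGEF16, CYP26B1, IQGAP2, KRT7, LIPH and NUAK2 did not pass without at least 1 of the libraries. The H2731 and H2810 libraries differ in the line as well as in BAP1 status, and what the differences come from was not tested.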

How the results depend on the processing

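With a ratio of at least 2 the rule gave 15 genes. Calling genes higher in both lines by edgeR on the same knockdown libraries gave 1743. These include all 126 members, but the rule chose the members by those values, so the overlap is no test of them. Other settings of the rule gave 92 to 156 genes, and leaving out 1 library in turn gave 125 to 134. With DESeq2, 16 members fell with GSK126 in H2731 in place of 25, and 2 members were higher and 2 lower in the mouse in place of 0 and 0; the cause was not tested. Leaving out 1 library gave 46 to 49 members that rose and 16 to 18 that fell in H2810, and 21 to 24 and 17 to 23 in H2731. Residuals of libraries with the same replicate number correlated at -0.0769 to 0.107 in the human tables and at 0.327 and -0.292 in the mouse, so numbers were not taken to pair libraries; with the replicate block 50 members rose and 18 fell in H2810, 25 rose and 29 fell in H2731 (7 of the latter in replication, against 4 without the block), and 0 and 0 were called in the mouse. Of 1710 recomputed values of named genes, 1644 kept direction and call, 66 kept the direction without the call and 0 reversed. Precision is limited by 2 libraries a group, and by low counts for OAS2 and OASL in H2731.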

Other observations

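The rule's level minimum alone left out 60 genes, and 1 gene, MUC5AC, with ratios of 1.64 in H2810 and 11.2 in MSTO-211H, was left out because libraries overlapped.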
